A study of Arabidopsis thaliana with 15 samples.

Results

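Cortex and endodermis are the layers of the root ground tissue, and the transcripts that both layers shared against the rest of the root are described here. They are 150 genes, 1 probe set each, out of 13513 probe sets (13356 genes) that have a single annotated gene on the array. They were chosen by measured values: on the scale log2(signal + 16), the lower of the cortex and endodermis means had to stand as far as possible above the highest of the columella, epidermis and stele means. That gap, the score, is a description of how the genes were chosen and was not tested. All 15 arrays came from Columbia seedlings grown for 5 days and then moved for 3 h to medium deficient in sulfur, after which root protoplasts were prepared and separated by their fluorescent marker, with 3 arrays per population. Cortex cells were sorted by pCOR::GFP. The pSCR::GFP line marked endodermis and also the quiescent center. Outside ground tissue, pWOL::GFP marked the stele, Pet111 the columella, and pWER::GFP the epidermis together with lateral root cap, so each population is what its marker labels. No array from sulfur-sufficient roots was analysed here, and the comparisons are between populations under the same treatment. The labels do not say whether replicates were separate plantings. The p-values therefore weigh a difference only against the spread of these arrays within populations, and that spread may be technical.

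In the root, cortex and endodermis are known to arise from a shared initial cell that divides to give an outer and an inner daughter. The GRAS proteins SHORT-ROOT and SCARECROW, with zinc finger partners such as JACKDAW (JKD), direct this division and set endodermal identity. The endodermis then builds the Casparian strip, a wall barrier to free diffusion into the stele, while the cortex is a storage and transport layer between epidermis and endodermis. Sulfate, nitrate and other ions cross both layers on their way to the vascular tissue.

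Epidermis replicate 2 and stele replicate 1 were left out of the rule, because each lay nearest to an array of another population (stele replicate 2, r = 0.974, and epidermis replicate 3, r = 0.969, across probe sets, which are not independent replicates). Their best r with an array of their own population was 0.887 and 0.897. Stele replicate 2 was kept, although it too lay nearest to an array of another population, epidermis replicate 2. Its best r within the stele was 0.968. Median array signal ran from 46.1 to 80.9. A sign of RNA length, the ratio of actin signal at the 3' end to that at the 5' end, was 43 on endodermis replicate 2, against 6.56 and 7.15 on the other endodermis arrays and 13.4 to 17.7 on the cortex arrays. The part of that array in the results was not tested beyond leaving it out. In sorted cell populations, fewer cells of a type and less RNA per cell cannot be told apart. Signals are deposited linear intensities, given in replicate order, and the signals of different genes are not compared because each probe set has its own brightness.

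Scores ran from 4.57 to 1.27 with a median of 1.73, which are gaps of 23.7-fold, 2.41-fold and 3.31-fold in signal + 16. A score of at least 3 was reached by 12 genes and one of at least 2 by 51. The last genes inside the limit were AT3G07720, DEWAX and AT5G23750, all at 1.27, and the first outside it were AT5G14120 (1.27), AT5G11970 (1.27) and AT2G17300 (1.25), so the limit falls in a continuous range. Another 148 probe sets scored as high but have no single annotated gene here. The mean signal over the 6 cortex and endodermis arrays had a median of 839 over the 150 genes and was at least 100 for 145 of them. On the 7 used arrays of the other populations it had a median of 82.3 and was under 50 for 55 genes. In 148 of 150 genes every cortex and endodermis array lay above every used array of the other populations, an order that the rule favours and that 3.69% of single-gene probe sets showed; GAT1_2.1 and AT4G26130 were the exceptions.

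**Figure D1:**
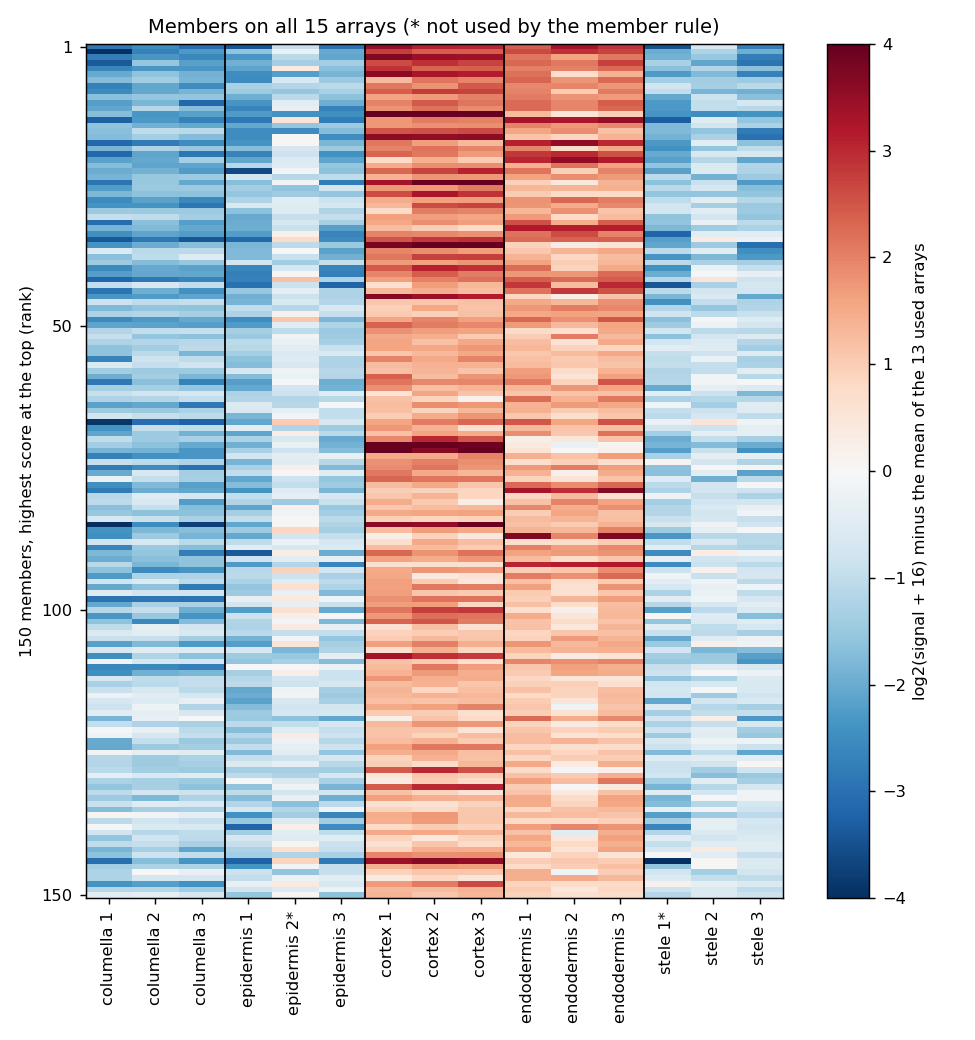
Heat map of the 150 genes shared by cortex and endodermis (rows, highest score at the top) on all 15 arrays (columns). Colour is log2(signal + 16) minus the mean of the gene's 13 used arrays; asterisks mark the 2 arrays not used to choose the genes. The 6 cortex and endodermis columns are red in nearly every row, and the stele columns are paler blue than the columella columns in many rows.

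Only 33 of the 150 genes carry a name beyond a locus code in the annotation used here, and the roles below are given for those. The genes of highest score were AT3G32030 (4.57), AT5G36160 (4.15), AT4G22460 (4.1) and AT5G04120 (4.02), known here by locus only. AT3G32030 had a signal of 2426, 1815 and 1765 on the cortex arrays and 1133, 2078 and 1567 on the endodermis arrays. In the other populations it was 13.8, 21.3 and 10.2 in the columella, 3.90 and 11.5 in the epidermis and 121 and 15.6 in the stele, far below all 6 ground tissue arrays; its probe set is of the _s_at kind and can detect related genes. For AT5G36160 the signal was 1930.0, 1531 and 1529 on the cortex arrays and 1761, 2152 and 1830.2 on the endodermis arrays, against 1.14, 28 and 42 in the columella, 77 and 55 in the epidermis and 105 and 57.2 in the stele. The next in score were AT3G22240, AT2G45180, AT2G20670, AT3G22540, AT1G72900, AT1G17300, AT2G22930 and AT3G09540, from 3.53 to 3.01. Then came AT1G62510, GSO1, AT5G38790, AT3G05150, AT1G06640, AT4G22110, AT4G16563, AT3G47210, AT2G16750, AT2G42320, WDL3, AT3G50300 and AT5G59540, from 2.99 to 2.51. WDL3, of a family of microtubule-binding proteins, averaged 1617 ± 442 in the cortex and 824 ± 316 in endodermis arrays (signal, SD, n = 3 each). Ground tissue means from 4718 to 7456 were measured for AT5G44020, UGT76B1, MSRB5, AT1G19450 and AT1G72160, which says how bright these probe sets are and gives no order of transcript levels.

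Regulators and receptors were among the shared genes. JKD, the zinc finger partner of SHORT-ROOT and SCARECROW, had a signal of 149, 142 and 104 on the cortex arrays and 101, 226 and 128 on the endodermis arrays. It was 14.9, 4.04 and 2.67 in the columella, 4.67 and 5.65 in the epidermis and 18 and 24 in the stele, and the 6 ground tissue values overlapped each other but no value outside. Cortex and endodermis differed by 0.05 ± 0.29 log2 (SE, adjusted p = 0.9) by limma, less than the spread between arrays. GSO1, also called SGN3, encodes a receptor kinase needed for an unbroken Casparian strip, and its signal was 1124, 1421 and 1367 on the cortex arrays and 3449, 3223 and 3942 on the endodermis arrays. It was 19.6, 54.3 and 36.9 in the columella, 31.3 and 33.2 in the epidermis and 232 and 102 in the stele, so the endodermis was highest, the cortex second and all other used arrays lower. Signals on the unused arrays were 487 on epidermis replicate 2 and 18.5 on stele replicate 1. SIM (SIAMESE), known as an inhibitor of cyclin-dependent kinases that promotes endoreduplication in trichomes, was at 1222, 962 and 571 on the cortex arrays and 904, 799 and 836 on the endodermis arrays. Outside ground tissue SIM was 56, 179 and 169 in the columella, 260.2 and 123 in the epidermis and 196 and 272 in the stele. DEWAX, a repressor of wax synthesis genes, PTI1-4, of a kinase family known from pathogen signalling, and TET8, a tetraspanin known from extracellular vesicles, had scores of 1.27, 1.53 and 1.46.

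Some genes of phenolic metabolism and of sugar conjugation were shared by both layers. Of 17 phenylpropanoid core genes on the list, only 1, HCT, had a probe set here, so that pathway as a whole was not measured. HCT, the transferase that moves hydroxycinnamoyl groups on the path to lignin monomers, had a signal of 3561, 4606 and 3123 on the cortex arrays and 3854, 2819 and 3321 on the endodermis arrays, and its outside values were 240.3, 322 and 216 in the columella, 235 and 436 in the epidermis and 1295 and 1012 in the stele. Both layers were thus above the stele, which in turn was above the columella and epidermis. Of the UDP-glycosyltransferases, enzymes that attach sugars to small molecules, 6 of 48 single-gene probe sets were members (12.5%, against 1.11% of all single-gene probe sets); this family was singled out after its members were seen. UGT74D1 was at 2400.2, 2443 and 3392 on the cortex arrays and 2272, 1857 and 2673 on the endodermis arrays, against 114, 142 and 154 in the columella, 481 and 679.5 in the epidermis and 645 and 654 in the stele. UGT73B1 reached 705, 1728 and 1871 on the cortex arrays and 975, 785 and 1069.6 on the endodermis arrays, against 39.1, 39.6 and 22.8 in the columella, 172 and 163 in the epidermis and 99 and 87.2 in the stele. For both genes the columella arrays were the lowest and no outside array reached the ground tissue values. GT72B1, listed also as UGT72B1, had means of 3303 ± 803 in the cortex and 3939 ± 1279 (SD, n = 3 each) in the endodermis, and UGT76B1, which is known to glucosylate defence-related acids, had 7145 ± 527 and 3276 ± 364. UGT84A1, known to act on hydroxycinnamates, and UGT72E3, known to act on lignin precursors, were shared at very unequal levels and are described with the comparison of the layers.

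Several enzyme genes with other roles were members. APS4, an ATP sulfurylase gene of the first step of sulfate assimilation and the 1 member among 3 tested genes of that list, had a signal of 3409.5, 3582 and 2865 on the cortex arrays and 2795, 2237 and 2734 on the endodermis arrays, against 1112, 939 and 883 in the columella, 353 and 413 in the epidermis and 601 and 280.1 in the stele. MSRB5 and MSRB6 are neighbouring genes for methionine sulfoxide reductases, which repair oxidised methionine. They are 2 of the 4 MSRB genes with a probe set here (50%, against 1.11% of all single-gene probe sets), a small family singled out after its members were seen. MSRB5 was at 6549, 6108 and 5359 on the cortex arrays and 3507, 4296 and 4865 on the endodermis arrays, and at 1122, 777 and 788 in the columella, 477 and 365 in the epidermis and 1231 and 293 in the stele. MSRB6 was at 329.8, 344 and 319 on the cortex arrays and 348, 180.2 and 252 on the endodermis arrays, and at 41.7, 39.1 and 27.4 in the columella, 11.4 and 42.1 in the epidermis and 50.2 and 21.7 in the stele. In both genes ground tissue lay above every outside array, and the layers overlapped in MSRB6, while every cortex signal of MSRB5 was above every endodermis signal. After normalization neither gene was called between the layers, with 0.19 ± 0.37 log2 (SE, adjusted p = 0.72) by limma for MSRB5. FDH, for formate dehydrogenase, AT1G74470, listed as a geranylgeranyl reductase, an enzyme of chlorophyll and tocopherol synthesis, DPL1, a lyase of sphingolipid breakdown, and GPDHC1, a cytosolic glycerol-3-phosphate dehydrogenase, had scores from 1.50 to 1.56. GAT1_2.1, a glutamine amidotransferase gene, overlapped with the outside arrays: its cortex signals were 118, 239 and 182, and stele replicate 2 was at 125.

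**Figure D2:**
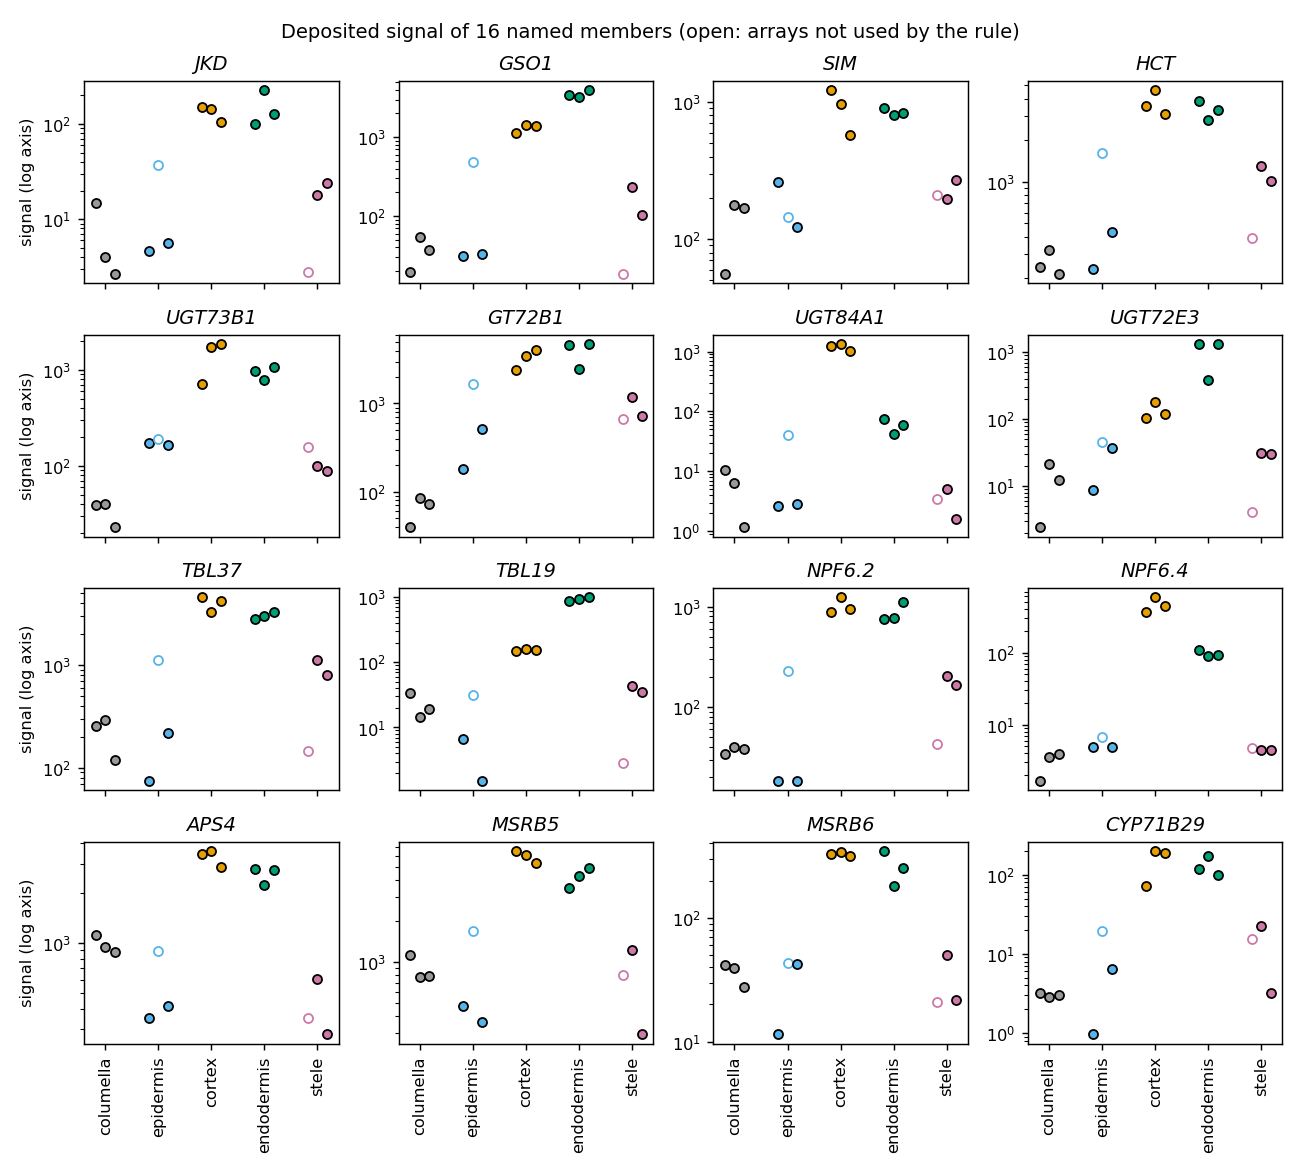
Deposited signal (log axis) of 16 named genes on each array, by population; filled points are arrays used to choose the genes and open points the 2 arrays not used. JKD, HCT, APS4 and MSRB5 were not called between cortex and endodermis, UGT84A1 and NPF6.4 are higher in the cortex, and UGT72E3, TBL19 and GSO1 are higher in the endodermis.

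Some wall and transport genes were also shared. TBL37, TBL19 and TBL25 belong to a family whose known members acetylate wall polysaccharides. Of 22 TBL probe sets, 3 were members (13.6%, against 1.11% of all single-gene probe sets), and this family too was singled out after its members were seen. TBL37 had a signal of 4529, 3232 and 4153 on the cortex arrays and 2796, 2985 and 3226 on the endodermis arrays, against 254, 293 and 119 in the columella, 74.4 and 218 in the epidermis and 1125 and 801 in the stele. TBL25 was at 501, 558 and 438 on the cortex arrays and 505, 566 and 473 on the endodermis arrays, with outside values of 38.7, 98.6 and 63.6 in the columella, 65.1 and 83.6 in the epidermis and 176 and 178 in the stele. The layers overlapped in TBL25 and all 6 values stood above the outside arrays. ATPMEPCRD, of the pectin methylesterase family, and MMP, a matrix metalloproteinase gene, scored 1.37 and 1.62. NPF6.2 and NPF6.4 belong to the nitrate and peptide transporter family, in which NPF6.4 is known as a nitrate transporter. NPF6.2 was at 879, 1234 and 942 on the cortex arrays and 749, 764 and 1102 on the endodermis arrays and at 34.5, 40.1 and 38.6 in the columella, 18.5 and 18.6 in the epidermis and 206 and 168 in the stele. NPF6.4 was at 363, 581 and 439 on the cortex arrays and 110.0, 88.3 and 92.2 on the endodermis arrays and stayed between 1.67 and 4.99 on the other used arrays. CYP71B28 and CYP71B29, adjacent cytochrome P450 genes, had cortex signals of 45.3, 91.9 and 72.7 and 73.3, 201 and 192, and endodermis signals of 45.3, 46.1 and 60.2 and 117, 171 and 98.4. PRA1.G2 belongs to a family of vesicle trafficking proteins. ACA.l averaged 1592 ± 212 in the cortex and 1646 ± 377 in endodermis arrays (signal, SD, n = 3 each), and its columella mean was 579. The annotation lists ACA.l as a calcium ATPase, a role that was not checked here.

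The gene pairs CYP71B28 and CYP71B29, MSRB5 and MSRB6, and AT5G19240 and AT5G19250 are direct neighbours in the gene order of assembly TAIR10.1, on chromosomes 1, 4 and 5. Another 3 pairs had 1 protein-coding gene between them: AT2G31730 and UGT74D1, AT4G05150 and AT4G05170, and AT5G40450 and AT5G40470. Near-identical neighbours can share probe signal, and whether these probe sets do was not tested. Members came from all 5 chromosomes, with 25 to 35 on each and 149 placed on the assembly.

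How the 2 layers differed within the shared set was asked with limma on quantile-normalized values, a difference the rule did not use, though taking the lower of both means favours genes with a small gap. Calls needed a difference of 1 log2 or more, with an adjusted p under 0.05. The cortex was higher in 25 of 150 genes (16.7%, against 9.71% of all 15907 tested probe sets) and the endodermis in 11 (7.33%, against 11.9%). The other 114 were not called, and 81 of these differed by less than 0.5 log2. Of the 114, 18 had an adjusted p by limma under 0.05 but differed by less than 1 log2. UGT76B1 was among them, at 0.82 ± 0.21 log2 (SE, adjusted p = 0.0052). The median difference, cortex minus endodermis, was 0.15 log2, against -0.03 for all tested probe sets. Those 114 genes are not shown to be equal in the layers: the median standard error was 0.25 log2.

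UGT84A1 had the largest difference among the shared genes called higher in the cortex, 4.00 ± 0.25 log2 (SE, adjusted p = 3.4e-09), a 16-fold difference in normalized signal + 16. Its signals were 1257, 1346 and 1028 on the cortex arrays and 74.8, 42.2 and 59.9 on the endodermis arrays, and 10.5, 6.49 and 1.16 in the columella, 2.65 and 2.85 in the epidermis and 4.99 and 1.62 in the stele, so the endodermis lay well below the cortex and above all other used arrays. On the unused arrays it was 40.5 on epidermis replicate 2 and 3.47 on stele replicate 1. AT5G57785 and AT1G62510 followed, at 3.60 ± 0.30 and 3.31 ± 0.25 (SE). AT1G62510, a cortex marker, was at 2183, 1541 and 2229.9 on the cortex arrays and 218, 123 and 179 on the endodermis arrays and at 13.7 or less on all other arrays. AT5G42250, AT5G59540, AT5G19240, AT2G38300, AT1G27030, AT1G09750 and ATPMEPCRD completed the 10 genes of largest difference, from 2.38 to 3.24 log2. NANA, an aspartic protease gene, differed by 2.33 ± 0.33, NPF6.4 by 2.11 ± 0.23, FDH by 1.89 ± 0.30 and AT1G74470 by 1.28 ± 0.28 (SE, adjusted p = 0.0016 for the last). All cortex arrays of NPF6.4 lay above all its endodermis arrays.

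Among the 11 genes higher in the endodermis, AT4G17280 had the most negative difference, -2.41 ± 0.25 log2 (SE, adjusted p = 1e-06). UGT72E3 was at 106, 178 and 121 on the cortex arrays and 1306, 379 and 1335 on the endodermis arrays, a difference of -2.39 ± 0.40 log2 (SE, adjusted p = 0.00017). Outside ground tissue UGT72E3 was 2.44, 21.5 and 12.2 in the columella, 8.89 and 37.1 in the epidermis and 30.9 and 30.1 in the stele. Its endodermis replicate 2 was the lowest endodermis array and still above the cortex. TBL19 was at 151, 159 and 155 on the cortex arrays and 879, 944 and 985 on the endodermis arrays, a difference of -2.27 ± 0.23 log2 (SE, adjusted p = 7.6e-07), with no overlap between the layers, and 33.7, 14.6 and 19.1 in the columella, 6.71 and 1.52 in the epidermis and 43 and 35.1 in the stele. GSO1 differed by -1.55 ± 0.28 log2 (SE, adjusted p = 0.00029); with all 15 arrays as labelled, its difference was -1.55 and the adjusted p by limma was 0.16, so the call was lost. AT3G25930, AT1G27030, AT5G37540 and AT5G25770 also lost their calls with all 15 arrays. AT4G05170, AT2G16750, AT4G22110, AT5G11020, AT5G37540 and AT4G28085 had differences of -1.08 to -2.02 log2. AT5G25770, at -1.01 ± 0.23, was close to the limit. AT5G37540 (without cortex replicate 1, or endodermis replicate 1 or 3), AT4G28085 (without cortex replicate 2 or 3, or endodermis replicate 3), AT5G25770 (without cortex replicate 1 or endodermis replicate 2) and AT5G11020 (without endodermis replicate 2) lost their calls when single arrays were left out, at differences of -0.80 to -0.97. Of the genes higher in the cortex, AT1G11440, AT5G19970 and AT3G25930 lost theirs without cortex replicate 1, without cortex replicate 2 or endodermis replicate 2, and without endodermis replicate 2.

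**Figure D3:**
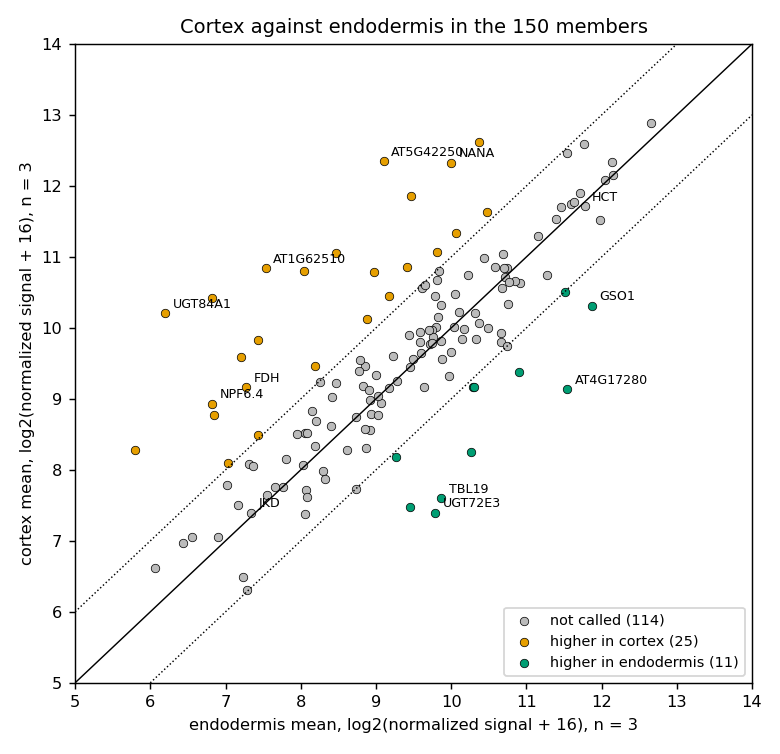
Mean level of each of the 150 genes in the endodermis (x axis) and the cortex (y axis), as log2(normalized signal + 16), 3 arrays each. The solid line marks equal levels and the dotted lines a difference of 1 log2; 25 called genes lie above and 11 below, with UGT84A1 farthest above the line and AT4G17280 among the farthest below.

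Outside ground tissue the shared genes were not uniformly low. The highest outside mean was in the stele for 90 genes, in the columella for 35 and in the epidermis for 25, as measured on the deposited scale that the rule used. On that scale the used stele arrays were brighter as a whole. Their medians over all single-gene probe sets were 6.16 and 6.17 log2, against 5.88 to 5.97 for columella and epidermis. The share over all probe sets was not counted on this scale, so nothing is read from these counts. A moderated F test in limma asked whether columella, epidermis and stele differed, which the rule did not select on, though it capped the highest of the 3. It passed for 80 of 150 genes (53.3%, against 63.2% of all tested probe sets), and for 39 with all 15 arrays as labelled (against 35.2% then). Of the 80, 48 were highest in the stele (60%, against 33.7% of all probe sets that passed). Another 18 were highest in the epidermis (22.5%, against 28.8%) and 14 in the columella (17.5%, against 37.5%). The columella was lowest for 46, but the share over all probe sets that passed was not counted, so nothing is read from that count. HCT (adjusted p = 7.9e-06 by the limma F test), TBL37 (3.5e-05), NPF6.2 (1.9e-06) and GSO1 (0.00054) were of the kind highest in the stele. UGT74D1 (3.5e-07) and GPDHC1 (3.5e-07) had low columella values, while APS4 (0.00054) and TET8 (0.00087) were highest in the columella. With all 15 arrays as labelled, HCT (0.056), TBL37 (0.34), NPF6.2 (0.23), GSO1 (0.47) and TET8 (0.31) did not pass, by the same adjusted p. The stele values of these genes rest on the 2 used stele arrays. One of them, stele replicate 2, also carried root hair genes near their epidermis level, as given below.

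Markers of the other populations were measured in the same arrays. Of 10 stele markers on the list, LHW and PHV had a probe set here, and their summed signal was 1378 to 1909 in the stele, 413 to 798 in the endodermis and 67.1 to 143 in the cortex. Both were higher in the endodermis than in the cortex, with cortex minus endodermis at -1.90 and -1.94 log2 (adjusted p by limma = 6.5e-05 and 3.6e-05). The root hair genes EXPA7 and EXPA18, 2 of 8 epidermis markers, summed to 99.3 to 147 in the cortex and 81.8 to 104 in the endodermis. Sums were 575 to 838 in the epidermis and 102 to 669 in the stele. The stele range came from unlike arrays: EXPA7 was 378 on stele replicate 2 and 49.1 on replicate 3, and EXPA18 291 and 53.0. On the used epidermis arrays EXPA7 was 242 and 369, and EXPA18 333 and 469. RCPG, 1 of 6 root cap markers, was at 11.2 to 91.7 and 30.4 to 82.2 in the layers, against 4003 to 8749 in the columella. AGL42 and BBM, 2 of 4 quiescent center and stem cell genes, went different ways. AGL42 was highest in the endodermis, with means of 44.8 there, 29.5 in the cortex and 19.5 in the stele (37.6 and 1.33). BBM was highest in the stele, with means of 220 there, 64.6 in the endodermis and 6.75 in the cortex. No marker signal was listed at 0. Their part in the levels of the shared genes was not tested.

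As a check of the layers themselves, all 4 cortex markers with a probe set here (AT1G62510, NPF6.4, JKD and AT1G09750) were among the 150 genes, so they cannot serve as independent support for the choice. Their summed signal was 3107 to 3838 in the cortex and 550.3 to 626 in the endodermis. Of the 3 endodermis markers with a probe set, GSO1 was a member, and BLJ and EN7 were not. BLJ, a zinc finger gene related to JKD, averaged 247 ± 42.4 in the endodermis and 28.5 ± 10.3 in cortex arrays (signal, SD, n = 3 each). EN7 had 395 ± 52.9 and 133 ± 50.0 (SD, n = 3 each). Both were higher in the endodermis, with cortex minus endodermis at -2.48 and -1.31 log2 (adjusted p by limma = 2.4e-06 and 0.0019). The genes of the marker lines, SCR among them, have no named probe set here.

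Only the outside arrays are new to the rule in a comparison with the 2 arrays it left out, since the cortex and endodermis arrays are those on which the genes were chosen as high. On both, 146 of 150 genes lay below every cortex and endodermis array. The share among all single-gene probe sets was 8.14%, but these were not chosen for high ground tissue levels, so nothing is read from the gap and it was not tested. By their labels neither array holds cortex or endodermis. The 4 others were AT2G32150, FDH, AT3G57070 and AT3G61260, which on epidermis replicate 2 reached the lowest ground tissue value; without endodermis replicate 2 all 150 lay below. With a gap of at least 1 log2 asked for, 92 genes did. The median member was 1.96 log2 lower on epidermis replicate 2 and 2.73 lower on stele replicate 1 than in ground tissue, while over all single-gene probe sets the median of ground tissue minus these arrays was -0.13 and -0.08.

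**Figure D4:**
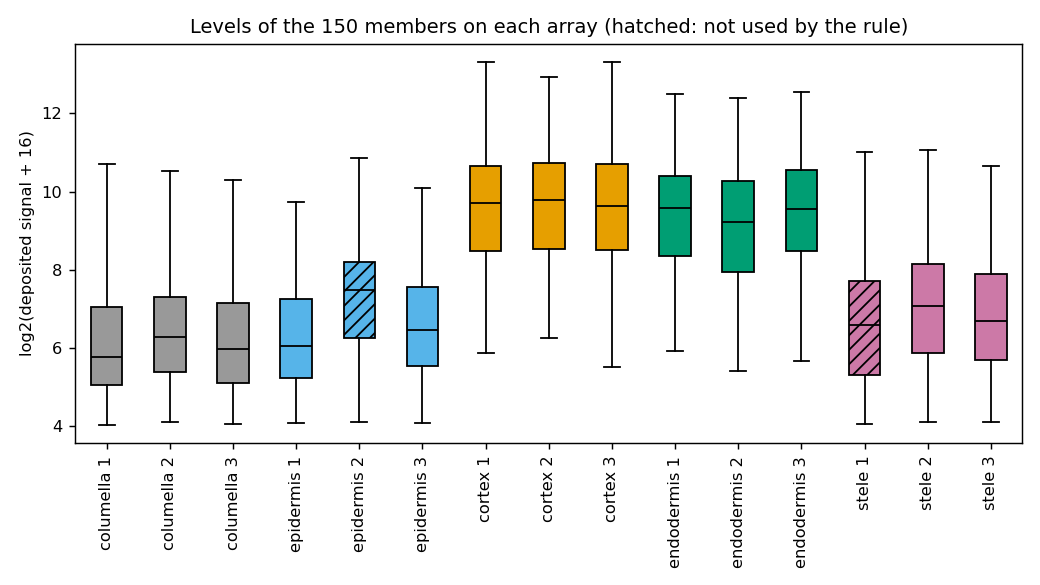
Levels of the 150 genes on each of the 15 arrays as log2(deposited signal + 16): boxes span the quartiles, lines mark medians, whiskers the full range, and hatched boxes are the 2 arrays not used to choose the genes. Medians were 9.23 to 9.78 on the cortex and endodermis arrays, 7.48 on epidermis replicate 2 and 6.59 on stele replicate 1.

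Other genes of the same pathways and families, all outside the 150, were compared between ground tissue (mean of cortex and endodermis) and the mean of the other 3 populations with limma. This contrast is that of the rule, so members are not tested in it, and removing them lowers the counts of higher genes. A call concerns the mean of the layers and can come from 1 layer alone. Of all tested probe sets, 13.4% were called with a higher mean of the layers and 13.3% with a lower one. Of the 15 list genes called higher, 10 had both layer means of signal above all 3 outside means, and UGT78D2, GTR2, BGLU28, F6'H1 and PSAE-1 did not. The pathway lists were chosen with results of these data known. Of 27 nuclear photosynthesis genes on the list, only 4 had a probe set here, so the pathway as a whole was not measured. A gene bright on the 3 cortex arrays alone can pass the signal filter for testing. All 4 were called with a higher mean of the layers, mostly by their cortex level. They were LHCB4.1 of the light-harvesting antenna (1.53 ± 0.17 log2, SE), PSAE-1 of photosystem I (1.18 ± 0.19), RCA, which activates Rubisco (1.74 ± 0.18), and PORB, of chlorophyll synthesis (1.51 ± 0.18). Each was also called higher in the cortex than in the endodermis, by 1.89 to 2.85 log2, as was AT1G74470 among the members. Cortex means were 250.0 ± 39.3 (SD, n = 3) for RCA and 112 ± 18.2 (SD, n = 3) for PORB, against 23.2 ± 7.82 and 18.3 ± 6.11 in the endodermis. The endodermis mean of RCA was close to the columella mean of 21.2. PSAE-1 means were 95.2 in the cortex, 6.04 in the endodermis, 10.4 in the columella, 9.64 in the epidermis and 5.37 in the stele, so its endodermis lay below the columella and epidermis.

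Of 25 glucosinolate genes on the list, 5 had a probe set here and 3 passed the filter for testing. All 3 tested genes, none among the 150, were called with a higher mean of the layers. In 2 of them both layers stood above the other populations. GTR1, a glucosinolate transporter gene, had means of 3379 ± 496 in the cortex and 3127 ± 565 (SD, n = 3 each) in the endodermis, a difference of 2.03 ± 0.14 log2 (SE) from the other populations. UGT74B1, of glucosinolate synthesis, differed by 1.73 ± 0.15 log2 (SE). GTR2 differed by 1.00 ± 0.18, with means of 890.3 in the cortex, 61.7 in the endodermis, 529 in the columella, 106 in the epidermis and 26.2 in the stele, so the cortex was high while the endodermis lay below the columella and epidermis. GTR2 was not called with all 15 arrays as labelled. Of 3 tested flavonoid genes, CHIL (2.17 ± 0.15) and UGT78D2 (1.59 ± 0.19) were called higher and UGT78D1 had a difference of -0.88. The UGT78D2 mean was 2469.5 in the cortex, and the endodermis at 573 was below the stele at 718. Besides JKD, the ground tissue regulators BLJ (2.55 ± 0.19) and SCL23 (1.57 ± 0.20), a GRAS gene related to SCARECROW, were called higher, with cortex minus endodermis at -2.48 and -1.66 log2.

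Of the other sulfur genes tested, 1 was called. APS3 had a difference of -0.67 ± 0.13 log2 (SE) and SIR, for sulfite reductase, one of 0.26 ± 0.16; neither reached the limit of 1 log2. BGLU28, a beta-glucosidase gene known to rise in sulfur starvation, was called higher (2.09 ± 0.33), with means of 277 in the cortex, 3681 in the endodermis, 23.3 in the columella, 356 in the epidermis and 1668 in the stele, so only the endodermis stood above all outside means. The 2 used stele arrays of BGLU28 were far apart, at 2921 and 414. SDI2 had a difference of -0.17. F6'H1, of scopoletin synthesis, was the 1 of 3 tested iron and coumarin genes called higher. Its means were 2926 in the cortex, 69.7 in the endodermis, 23 in the columella, 186 in the epidermis and 213 in the stele, so the cortex was high and the endodermis lay below the epidermis and stele. The lists held 22 gibberellin, 23 jasmonate and 12 protoplasting and touch genes, of which only 4, 2 and 2 had a probe set here. None of these was called in either direction at the log2 threshold of 1. GID1A (0.77), GID1B, GID1C, SLY1, MYC3 and WRKY53 (0.62) stayed under it although their adjusted p by limma was below 0.05. SBE2.2 (-1.69 ± 0.14), the 1 of 4 tested starch and sucrose genes to pass, was called lower, and both layers were below all outside means. The mitosis genes AUR1 (-1.17 ± 0.18) and AUR2 (-1.42 ± 0.16) were also called lower, but by the cortex. AUR2 means were 5.96 in the cortex, 375 in the endodermis, 229 in the columella, 209 in the epidermis and 263 in the stele, with the endodermis the highest of all. AUR1 means were 23.4 in the cortex, 127 in the endodermis, 73.4 in the columella, 161 in the epidermis and 312 in the stele. NPF3.1 (0.95) and BRL1 (-0.43), of the nitrate transporter and brassinosteroid lists, were not called, and AGL42 was called higher (1.25 ± 0.23). None of the listed suberin, aquaporin, auxin transport, sulfate transporter, ion channel and triterpene genes had a named probe set here.

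Other genes of the UDP-glycosyltransferase and TBL families were called in both directions. Of 33 other tested UDP-glycosyltransferase genes, 7 were called with a higher mean of the layers, UGT76E12 (2.84), UGT71C1 (1.80), UGT74B1 (1.73), UGT78D2 (1.59), UGT76C2 (1.40), UGT71C5 (1.37) and UGT71C3 (1.32) log2, and 3 with a lower one, UGT72E1 (-2.08), UGT71B5 (-1.48) and UGT85A5 (-1.0). UGT85A5 was not called with all 15 arrays as labelled. Of 16 other TBL genes, 5 were called higher, TBL30 (2.97), TBL41 (2.59), TBL38 (2.02), TBL32 (1.18) and TBL35 (1.08), and 2 lower, TBL36 (-1.93) and TBL45 (-1.29). Among 6 other NPF genes, 3 were called higher, NPF2.10 (2.03), NPF4.3 (1.33) and NPF2.11 (1.00), and none lower, where NPF2.10 and NPF2.11 are GTR1 and GTR2. Of 19 CYP71B probe sets only 7 passed the signal filter for testing, 2 of them members. Among the 5 other tested CYP71B genes, 3 were called higher, CYP71B34 (3.21), CYP71B26 (2.38) and CYP71B37 (1.33). Of 8 other tetraspanin genes, 4 were called higher, TET6 (2.05), TET2 (1.38), TET3 (1.21) and TET9 (1.07), 1 of 2 other MSRB genes was (MSRB9 (1.54)), and none of 6 PRA1 genes passed in either direction. Of the 23 family genes called higher, 13 had both layer means of signal above all 3 outside means. The other 10 were UGT78D2, UGT76C2, UGT71C3, UGT71C1, TBL41, NPF2.11, NPF4.3, TET2, TET3 and TET6. NPF2.11 was not called with all 15 arrays. Of the 5 called lower, UGT71B5, UGT85A5 and TBL36 did not have both layer means below all 3 outside means. These families were chosen after the members were known.

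**Figure D5:**
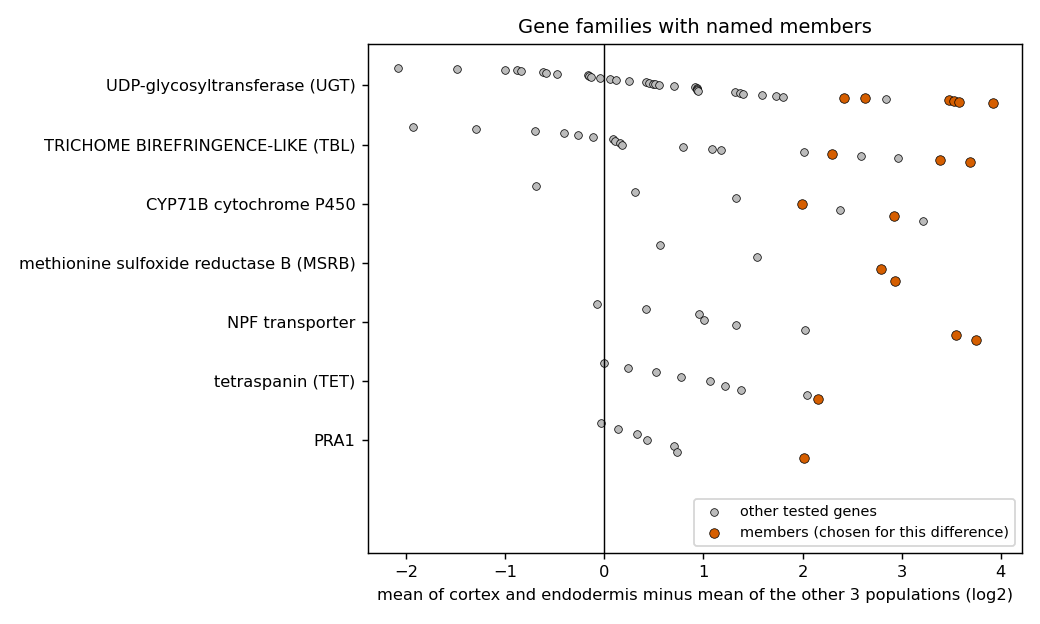
Each tested gene (point) of 7 families with named members, placed by the mean of cortex and endodermis minus the mean of the other 3 populations (x axis, log2); orange points are the members, which were chosen for this difference, and grey points the other genes. In the UDP-glycosyltransferase and TBL rows the grey points fall on both sides of 0, and in the PRA1 row PRA1.G2 is the 1 orange point.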

How the data were processed

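The deposited values are signal intensities on a linear scale, 1 value per probe set and array, which the authors obtained with MAS5 (per the submitters' processing notes). The sources used here do not give the MAS5 version or its scaling. Of 22810 probe sets, 13513 have a single gene in the platform annotation, 503 several and 8794 none; names came from that annotation and a RefSeq gene table of assembly TAIR10.1. Genes were ranked by the score on log2(signal + 16) over 13 arrays. For tests, the signals of 13 arrays were quantile-normalized, 16 was added, and probe sets above the 40th percentile on at least 3 arrays were kept (15907). limma 3.58.1 in R 4.3.3 was fitted to all 5 populations with a trended prior, p-values were adjusted by Benjamini-Hochberg over all tested probe sets, and calls needed an adjusted p under 0.05 and at least 1 log2 (the F test, the adjusted p alone). Fold changes on this scale understate the change of dim genes. Tables and plots used Python 3.11.15, pandas 2.3.3, numpy 2.4.6 and matplotlib 3.10.9. On simulated data for the cortex and endodermis comparison, genes set to differ by 1.5 log2 were recovered in 95% of cases. Those at 3 log2 were recovered in 100%, with 10 false calls among 14817 probe sets. The genes set to differ were picked from brighter probe sets, and all others had the same mean in every population. These rates are not given by signal level. The recovery of dim genes, and rates in data with many population differences, were not tested. Precision is limited by the 3 arrays per population. Detection calls were not used here.

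The genes and the 27 gene lists (394 genes, 55 with a probe set here) were chosen with earlier results of these data known. Genes were named by these criteria: the 25 of highest score, the 3 on each side of the limit, the 10 called with the largest difference between the layers in each direction, the 5 of highest mean signal, genes on a list, direct neighbours, and the 4 of highest score in each functional class of at least 3 members. Other members that carry a gene name, the members that lost a call, the families and the ground tissue contrast for other genes were chosen after values were seen. Alternatives tried were all 15 arrays, the deposited scaling, pseudocounts of 1 and 64, other filters, no trend, array weights, a replicate block and leaving out each array.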

Additional observations from a re-analysis of the deposited data

How the results depend on the processing

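Over the 22 alternatives of the fit, 27 of the 36 calls between cortex and endodermis held in every one, 9 were lost in at least 1 and none reversed. The counts were 25 genes higher in the cortex (23 with all 15 arrays as labelled) and 11 higher in the endodermis (8). Leaving out single arrays gave 24 to 29 and 9 to 12. The count of genes that differed among columella, epidermis and stele fell from 80 to 39 with all 15 arrays, 37 of them shared, and was 71 to 85 without single arrays; the cause was not tested. Of the 150 genes, 128 stayed with all 15 arrays, 139 after quantile normalization, 130 and 128 with pseudocounts of 1 and 64, and 135 to 146 without single arrays. The 146 genes lower on both unused arrays became 92 with a margin of 1 log2, a stricter criterion by construction, and 146 to 150 without single arrays. Among the 43 other list genes tested, 15 were called with a higher and 5 with a lower mean of the layers, and 14 and 6 with all 15 arrays, alternatives chosen after seeing the data. Same-numbered cortex and endodermis arrays had deviations correlated at -0.03, -0.06 and 0.05, and unlike-numbered ones at -0.13 to 0.10. No pairing by number was seen in this measure. Other populations were not checked, and whether arrays shared a planting or a sorting day was not tested. With the replicate block the counts were 25, 11 and 76.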
